A study of Mus musculus with 12 samples.

Results

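The response of wild-type skeletal muscle to 14 days without its nerve was described across all genes measured on 6 of the 12 arrays of the series. The 6 arrays held total RNA of whole gastrocnemius, a calf muscle, from adult male CD1 mice that carried no Smad4 deletion: 3 WT control muscles and 3 WT muscles denervated for 14 days. The other 6 arrays held the same conditions in Smad4 knockout (KO) mice and entered the fit and a closing comparison. Smad4 is the partner of the receptor-activated Smads of the TGF-beta and BMP pathways, and the promoter or cell type behind its deletion is not given in the labels. Per the design text, each condition was repeated in 3 independent experiments with different animals. The p-values therefore rest on the spread between samples of separate animals, as far as the labels tell, and whether a control and a denervated muscle came from 1 animal is not stated. Of 15227 genes tested, 14736 were seen in WT muscle, meaning that in 1 or both WT groups each of the 3 arrays carried the scanner software's mark of a signal well above background for their probe. Levels are log2 signal minus the 75th percentile of the array, so that 0 is the 75th percentile and a difference of 1 is a 2-fold change. Differences are denervated minus control, with the standard error (SE) of the fit.

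A muscle fibre is normally driven by a single motor axon that ends on a small patch of membrane, the neuromuscular junction. Released acetylcholine opens receptor channels there, the fibre fires an action potential, and calcium leaves the sarcoplasmic reticulum to start contraction. This electrical activity also keeps receptor genes silent outside the junction and helps set the supply of energy enzymes. A fibre that has lost its nerve becomes sensitive to acetylcholine along its whole length, wastes, and makes proteins that are otherwise seen in embryonic muscle.

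The 6 WT arrays had 51.0% to 56.4% of 41174 probes well above background, a 75th percentile of 219 to 308 intensity units, and no saturated spot. Arrays of a WT group correlated across genes with r of 0.974 to 0.986, where genes are not independent replicates. Control and denervated replicate 1 shared slide 1, control replicates 2 and 3 lay on slides 2 and 3, and denervated replicates 2 and 3 shared slide 4, which was scanned on another day. Only slide 1 therefore held both WT groups. All 10 muscle fibre markers were seen, among them creatine kinase Ckm at 8.41 to 8.55 in control and 7.06 to 7.24 in denervated muscle. None of 8 neuron markers, among them Chat, Snap25 and the neurofilament gene Nefl, was seen in either group. Precision is limited by having 3 arrays per group, and with so few the smallest p that an exact permutation test can reach is 0.1. Genes were therefore tested in limma's fit across all genes, and a gene is called when its Benjamini-Hochberg adjusted p was under 0.05. Whole muscle is a mixture, and fewer cells of a type and less RNA per cell cannot be told apart.

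Denervation changed the level of 5868 of the 14736 genes (39.8%), and the changes ran both ways. Of the called genes, 2760 were higher (18.7% of those seen) and 3108 lower (21.1%). These shares are the background for every count of a gene list or marker list below. A count near them does not set a list apart from other genes. At least 2-fold changes were called for 1275 genes upward (8.65%) and 1385 downward (9.40%). Large rises outnumbered large falls in this fit: 454 genes rose and 308 fell at least 4-fold, and 88 rose and 23 fell at least 16-fold. The size is uncertain for a gene not well above background in a group. On all 3 denervated arrays and no control array 303 genes were well above background, and 116 genes showed the reverse. The median difference over all genes was -0.03, with a 5th percentile of -1.40 and a 95th of 1.48. The 3 arrays of a group lay wholly above the 3 of the other for 7951 genes (54.0%). Within slide 1, 5846 of the 5868 called genes (99.6%) differed in the same direction, a share that is high in part because the slide 1 arrays were in the fit that called them. Among the genes seen on all 6 arrays, the 3304 brightest by level had more falls (25.1%) than rises (16.9%), against 17.9% and 14.7% in the 3304 dimmest. A different background correction, normexp with an offset of 50 intensity units, moved the median of all genes by -0.10 and left 1908 calls. Of these 724 were higher and 1184 lower, and at least 2-fold 469 were higher and 729 lower. The balance of rises and falls therefore depended on this step. The correction and the offset were not tested apart.

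**Figure D1:**
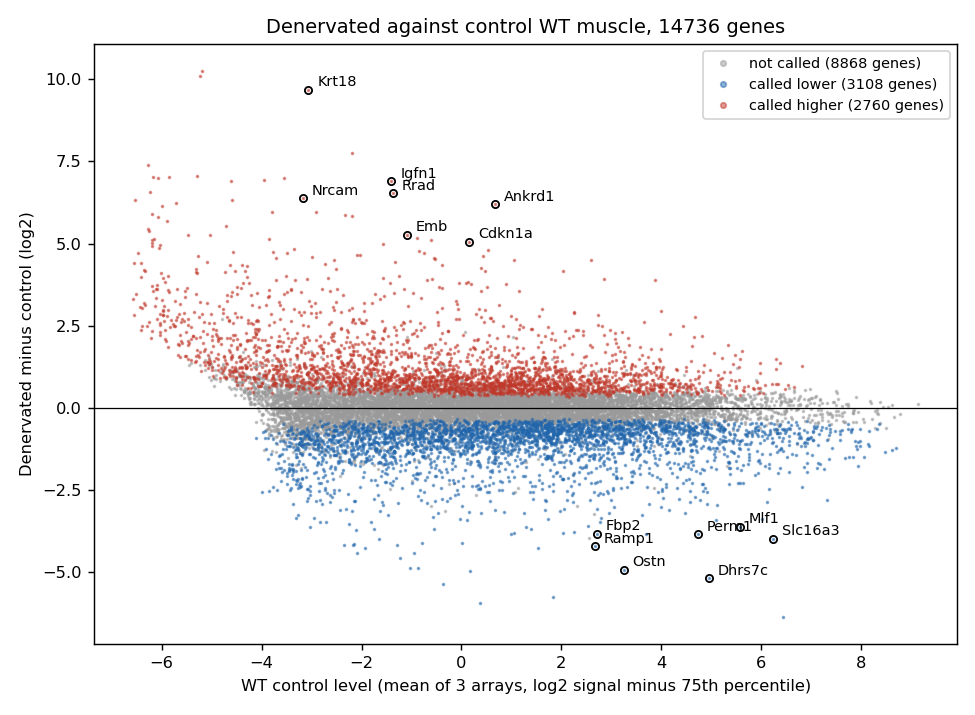
Denervated minus control difference (log2) of each of the 14736 genes seen in WT muscle against its mean level in WT control muscle (log2 signal relative to the 75th percentile of its array), a point per gene, with called rises in red, called falls in blue and other genes in grey. The 2760 rises and 3108 falls spread on both sides of 0, and Krt18, at 9.69, is the highest of the labelled genes while Dhrs7c, at -5.21, is the lowest.

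Subunit genes of the acetylcholine receptor rose together, with the exception of the adult epsilon subunit. The adult receptor holds 2 alpha subunits with a beta, a delta and an epsilon, and the fetal receptor has gamma in the place of epsilon. Of the 5 subunit genes 4 were called higher and none lower, with a median of 4.51 against -0.03 for all genes. Chrna1, the alpha subunit, measured 2.50, 2.72 and 2.56 in control and 7.09, 7.28 and 6.93 in denervated muscle. Its groups lay far apart, with no denervated array near a control array. The difference was 4.51 ± 0.13 (22.7-fold, limma adjusted p = 8.04e-09), by a probe at chr2:73366894-73366953 on mouse build mm8. Chrnd, the delta subunit, went from -3.67, -3.68 and -4.05 to 1.93, 2.38 and 2.17, a difference of 5.96 ± 0.16 with 2 of the 3 control arrays well above background. Chrnb1, the beta subunit, was 0.70 and 0.09 in control replicates 1 and 3, its spot being missing on control replicate 2, and 3.25, 2.99 and 3.21 after denervation (2.75 ± 0.23). Both kept their groups apart.

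The fetal and the adult subunit differed most. For Chrng, the gamma subunit, the brighter of 2 probes read -5.58, -4.01 and -6.13 in control, on no array well above background, and 4.95, 5.31 and 4.34 after denervation. By this probe Chrng was at least 536-fold higher, a bound that sets each control array at its lowest signal well above background or at the probe's own where that was higher, and that is approximate. The other Chrng probe, dimmer after denervation, went from -3.67, -3.04 and -3.54 to 1.18, 0.45 and 0.74, a smaller difference of 4.21 ± 0.30. Both probes therefore moved the same way by different amounts. Chrne, the epsilon subunit, read 1.69, 1.50 and 1.55 in control and 1.57, 1.35 and 1.17 after denervation. Its groups overlapped and its difference of -0.21 ± 0.16 did not pass the test (adjusted p = 0.31).

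Promoters of receptor genes carry E-boxes, short sites that bind myogenic factors such as myogenin. The 250 bases before the start of 4 genes that changed strongly are printed. The windows of the receptor subunits Chrna1 and Chrng held CAGCTG, a form of E-box. Those of the myogenic factor Myog and of the mitochondrial regulator Perm1 did not hold this form. Other forms of E-box were not searched, and some stand in these windows, such as CAGTTG in Myog and CACCTG in Perm1. The sequences are from RefSeq on GRCm38.p6, 5′ to 3′ on the strand of the gene, with CAGCTG in capitals.
Chrna1: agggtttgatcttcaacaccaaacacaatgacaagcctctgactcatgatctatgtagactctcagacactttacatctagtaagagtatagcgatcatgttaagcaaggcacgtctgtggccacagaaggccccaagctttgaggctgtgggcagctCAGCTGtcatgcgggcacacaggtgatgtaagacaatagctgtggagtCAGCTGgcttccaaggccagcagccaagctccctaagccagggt
Chrng: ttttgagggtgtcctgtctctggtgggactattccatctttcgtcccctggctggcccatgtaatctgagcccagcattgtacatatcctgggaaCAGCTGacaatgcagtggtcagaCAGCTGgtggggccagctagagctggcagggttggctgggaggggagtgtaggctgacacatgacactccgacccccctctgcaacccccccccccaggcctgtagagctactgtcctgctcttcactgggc
Myog: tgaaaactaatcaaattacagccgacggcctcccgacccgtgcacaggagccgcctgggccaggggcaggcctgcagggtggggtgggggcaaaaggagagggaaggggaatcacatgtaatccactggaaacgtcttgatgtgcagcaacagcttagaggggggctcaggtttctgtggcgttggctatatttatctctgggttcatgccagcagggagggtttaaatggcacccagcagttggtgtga
Perm1: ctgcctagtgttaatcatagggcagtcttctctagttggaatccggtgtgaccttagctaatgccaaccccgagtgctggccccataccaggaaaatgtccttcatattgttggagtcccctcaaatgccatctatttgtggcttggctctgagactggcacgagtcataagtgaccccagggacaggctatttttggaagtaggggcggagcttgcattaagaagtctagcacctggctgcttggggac
Chrna1 is chr2:73580339-73580588 on the minus strand, and Chrng chr1:87205561-87205810, Myog chr1:134289754-134290003 and Perm1 chr4:156215677-156215926 on the plus strand. The matches of Chrna1 ended 87 and 39 bases before its start, and those of Chrng 150 and 127 bases before. CAGCTG reads the same on both strands and occurred in 13% of 32851 promoter windows of this length. Of the genes seen in WT muscle, 10106 matched a promoter, and 14.7% of these held it. The share was 19.0% (156 of 820) among genes called at least 2-fold higher, 24.4% (70 of 287) among those at least 4-fold higher, 18.6% (172 of 924) at least 2-fold lower and 17.4% (34 of 196) at least 4-fold lower. TNAAGGTCA, the site of estrogen-related receptors, was searched on both strands, can share its outer CA with a CAGCTG, and lay in none of the 4 windows. It occurred in 1.14% of all windows, in 0.861% of the genes seen, in 1.34% and 0.974% of those at least 2-fold higher and lower, and in 2.44% (7 of 287) and 0.510% (1 of 196) of those at least 4-fold higher and lower. These shares describe letters in a window and do not show binding.

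Among the genes that build the junction, the receptor kinase and its co-receptor rose, the esterase fell, and the scaffold genes did not pass the test. Of 19 synapse organisers 16 were seen, 7 were called higher and 3 lower (background 18.7% and 21.1%), with a median of 0.40. Nerve agrin binds Lrp4, which activates the kinase MuSK, which then gathers receptors through Dok7 and rapsyn. Musk measured -2.77, -2.65 and -3.71 in control, with 2 of 3 arrays well above background, and 0.18, 0.00 and 0.40 after denervation. Its groups did not overlap and differed by 3.24 ± 0.29 (9.44-fold, adjusted p = 1.21e-05). Lrp4 went from -1.0, -1.28 and -0.98 to 0.47, 1.37 and 0.87, also without overlap, a difference of 1.99 ± 0.25. Ache, the acetylcholinesterase that ends the signal, read 0.23, 0.46 and -0.58 in control and -1.43, -2.30 and -2.60 after denervation. All denervated arrays lay below all controls, with a difference of -2.15 ± 0.36.

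The other members moved less. Nes, an intermediate filament of the junction, rose by 1.35 ± 0.24, Lama5, a laminin chain, by 1.22 ± 0.20, Erbb2 by 1.04 ± 0.20, Utrn (utrophin) by 1.01 ± 0.17 and Erbb3 by 0.93 ± 0.25. Erbb2 and Erbb3 encode receptors of neuregulin. The laminin chains Lama4 and Lamb2 fell by 0.98 ± 0.19 and 0.79 ± 0.14. Agrn (0.01), Dok7 (0.38), Rapsn (-0.12), Erbb4 (0.07), Etv5 (-0.20) and Prkar1a (0.41) did not pass the test, and Colq, Nrg1 and Cntn1 were not seen. Ache, Utrn and Erbb3 were not called under normexp.

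The adhesion genes Nrcam, Emb and Ncam1, known from nerve, rose by large amounts. Of 14 listed genes of this kind 10 were seen, 4 higher and 1 lower (background 18.7% and 21.1%), with a median of 0.22. Nrcam, an immunoglobulin-type adhesion molecule, went from -2.93, -3.48 and -3.13 to 3.62, 3.39 and 2.58, a difference of 6.38 ± 0.39 (83.1-fold). Emb, embigin, a partner of lactate transporters, went from -0.85, -1.18 and -1.27 to 4.09, 4.37 and 4.06, a difference of 5.27 ± 0.19. Ncam1, the neural cell adhesion molecule, went from 0.69, 1.04 and -0.57 to 4.80, 4.78 and 4.34, a difference of 4.25 ± 0.43 by its brightest probe. None of these groups overlapped, although 1 of 8 Ncam1 probes gave -0.10. Tnc, the matrix protein tenascin-C, rose by 1.43 ± 0.39 and was not called with the slide as a block or without control replicate 3. Cd24a, a small surface glycoprotein, fell by 2.29 ± 0.26. Cdh15 (0.43), Chl1 (-0.21), Nfasc (-1.24), Cadm1 (0.02) and Mcam (-0.51) did not pass the test, and Cdh2, L1cam, Cadm2 and Alcam were not seen. Schwann cell markers changed too, with 1 of the 11 seen called higher and 6 lower. The higher one, Ngfr, rose by 2.33 by its brighter probe, with -0.62 by the other. The summed signal of these markers, in multiples of the array's 75th percentile, was 19.3 to 30.7 in control and 6.95 to 9.19 in denervated muscle. The part of Schwann cells in the adhesion results was not tested.

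Several potassium channel genes of adult muscle fell, and Kcnq5 and Kcnn3, of the same class, rose. Of 20 ion channel genes 17 were seen, 4 higher and 9 lower (background 18.7% and 21.1%), with a median of -1.01. Scn4a, the sodium channel of adult muscle, read 1.48, 2.07 and 1.31 in control and 1.03, 1.02 and 1.51 after denervation. Its groups overlapped, and its difference of -0.43 was not called. Kcnc1, a fast voltage-gated potassium channel, fell from 2.06, 2.68 and 1.98 to -0.58, -0.50 and -0.84 (-2.88 ± 0.31). Kcnj12, an inward rectifier that holds the resting potential, fell from 2.29, 2.30 and 2.10 to 0.19, 0.00 and 0.31 (-2.06 ± 0.18). Both had every denervated array below every control array.

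Further falls were called for Kcnc4 (-1.55), Kcna5 (-1.37), Kcnn2 (-1.23), Kcnma1 (-1.08), Kcnj2 (-1.05) and Kcnj11 (-1.01). Kcnj11 is the pore of the ATP-sensitive channel. Kcnj11 and Kcnn2 were not called with the slide as a block, nor Kcnj11 with the scan day as a block, and Kcna5, Kcnn2, Kcnma1 and Kcnj2 were not called under normexp. Kcnq5, a voltage-gated channel, went from -1.69, -1.74 and -3.15 to 0.76, 0.61 and 1.11, a rise of 3.02 ± 0.34 without overlap. Kcnn3, the apamin-sensitive calcium-activated channel known from denervated and embryonic muscle, was not well above background on any control array and was at least 10.4-fold higher. Abcc8, a subunit of the ATP-sensitive channel, rose by 1.23 ± 0.34, a call lost under normexp, with the WT arrays alone and without control replicate 1 or 2. The chloride channel Clcn1 (-1.14), Kcna1 (0.01) and Abcc9 (-0.28) did not pass the test, and Scn4b and Kcna7 were not on the array. Under normexp 5 members were lower.

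**Figure D2:**
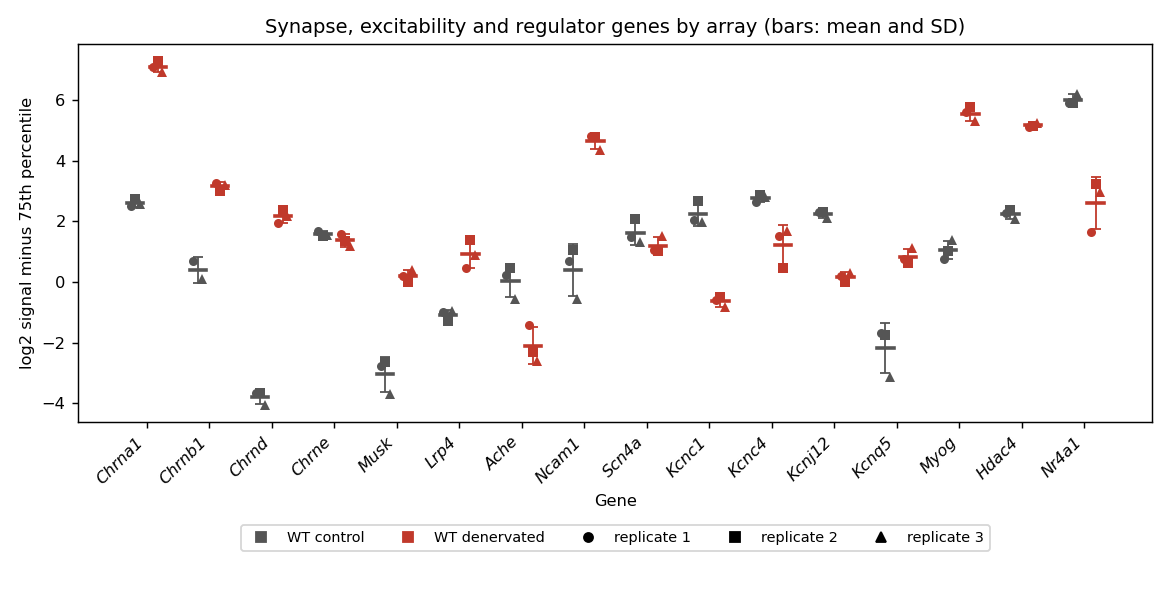
Level on each WT array (log2 signal relative to the 75th percentile of its array) of 16 genes of synapse, excitability and their control, with control in grey, denervated in red, a marker shape per replicate and bars at the mean and SD. The denervated points of Chrna1, Chrnd, Musk, Myog and Hdac4 lie above all controls, those of Ache, Kcnc1, Kcnj12 and Nr4a1 below, and those of Chrne and Scn4a overlap the controls.

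A dehydrogenase and structural proteins of the calcium store fell and an inhibitor of its pump rose. Of 24 genes, all seen, 3 were higher and 9 lower (background 18.7% and 21.1%), with a median of -0.22. Sln, sarcolipin, which inhibits the calcium pump, went from 3.70, 4.07 and 3.83 to 7.71, 7.92 and 7.67 (3.90 ± 0.40, 14.9-fold). Dhrs7c, a sarcoplasmic reticulum dehydrogenase, went from 4.86, 5.22 and 4.78 to -0.54, 0.60 and -0.82 (-5.21 ± 0.31, 37.0-fold lower). Both separated all arrays of the groups, and Dhrs7c was the largest fall of any gene seen on all 6 arrays by the naming rule. The junctophilins Jph2 and Jph1, which hold the reticulum to the surface tubules, fell by 1.85 ± 0.20 and 1.10 ± 0.25. Of the calcium-binding proteins of the reticulum, Hrc fell by 1.70 ± 0.24, Casq1 by 1.59 ± 0.25 and Srl by 0.70 ± 0.15. Srl was not called with the slide as a block. Cacng1, the gamma subunit of the surface calcium channel, rose by 1.17 ± 0.15. The release channel Ryr1 (-0.22), the voltage sensor Cacna1s (0.11) and the slow pump Atp2a2 (0.03) did not pass the test. Under normexp 2 members were higher and 6 lower.

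Factors that set the muscle programme changed in both directions. Of 29 myogenic and activity-linked regulators 27 were seen, 12 higher and 8 lower (8 and 5 under normexp), with a median of 0.66. Myog, myogenin, a basic helix-loop-helix factor, read 0.76, 1.02 and 1.37 in control and 5.61, 5.76 and 5.29 after denervation. The groups were separate by a wide margin, and the difference was 4.50 ± 0.37 (22.6-fold, adjusted p = 5.74e-06). Hdac4, a deacetylase that represses targets of Mef2, went from 2.28, 2.38 and 2.07 to 5.12, 5.13 and 5.22 (2.92 ± 0.14). Nr4a1, an orphan nuclear receptor switched on by activity, went from 5.92, 5.91 and 6.21 to 1.63, 3.22 and 2.96 (-3.41 ± 0.38). Denervated replicate 1 was the lowest, and no group overlapped. Ankrd1, a titin-linked stretch protein, went from 1.15, 0.51 and 0.37 to 6.87, 7.08 and 6.66 (6.19 ± 0.31, 73.2-fold). Id2, an inhibitor of helix-loop-helix factors, rose by 3.63 ± 0.32, Csrp3, the muscle LIM protein, by 2.75 ± 0.18, and Myf6, another myogenic factor, by 2.48 ± 0.19.

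For Runx1, a runt factor, the brighter probe was not well above background in control and was at least 90.4-fold higher, while the other probe, seen in both groups, rose by 1.55. Dach2, a repressor upstream of myogenin, went the other way: it read -2.96, -2.53 and -3.02 in control, was on no denervated array well above background, and was at least 3.13-fold lower. Its call was lost under normexp. The class IIa deacetylases did not move together, since Hdac5 fell by 0.86 ± 0.19 and Hdac9 by 1.19 ± 0.22, the latter not under normexp. Mef2a rose by 1.30 ± 0.13, whereas Mef2c (0.47) and Mef2d (-0.08) did not pass the test. Maf, a factor of fast fibres, fell by 2.22 ± 0.22. Satellite cells, the stem cells of muscle, also make myogenic factors. Of their 12 markers 9 were seen, 2 were higher and 1 lower (background 18.7% and 21.1%), and Pax7 (-0.26) and Cdh15 (0.43) did not pass the test. Their summed signal was 30.7 to 35.3 in control and 29.6 to 33.7 in denervated muscle.

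Embryonic and cardiac sarcomere genes changed one by one, and some genes of the adult fast sarcomere fell while none was called higher. Of 19 developmental and cardiac genes 6 were higher and 2 lower, with a median of 0.21 (below 0 under normexp). Myh3, embryonic myosin heavy chain, read 0.47, 0.91 and 0.23 in control and 6.39, 5.95 and 3.67 after denervation. Denervated replicate 3 was the lowest of its group and still above all controls, and the difference was 4.80 ± 0.58 (27.9-fold). Igfn1, a Z-disc-associated protein, went from -1.86, -1.10 and -1.24 to 5.04, 5.61 and 5.82 (6.89 ± 0.55). Tnnt2, cardiac troponin T, rose by 4.34 ± 0.24, Myl4, the embryonic light chain, by 3.77 ± 0.29, the stretch protein Ankrd2 by 1.59 ± 0.35, and Xirp1 by 1.07 ± 0.31. Xirp1 was not called under normexp or without control or denervated replicate 1. Actc1, cardiac actin, fell by 2.31 ± 0.30 and Myl2, the slow light chain, by 1.51 ± 0.40, the latter not with the scan day as a block.

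The 2 probes of Myh8, perinatal myosin heavy chain, disagreed. The brighter read 7.73, 8.43 and 8.71 in control and 7.89, 8.48 and 8.14 after denervation, with overlap and no call, and the dimmer went from -5.47, -6.47 and -5.52 to -0.38, -1.78 and -3.70 (3.87 ± 0.68). The brighter probe stands for the gene here. The remaining members did not pass the test: Myh7 (-0.14), Myl3 (-0.26), Myl6b (0.36), Tnni1 (0.03), Tnnc1 (-0.84), Tnnt1 (0.21), Tpm3 (-0.56), Mybph (-0.12), Mybpc1 (0.29) and Xirp2 (0.28). Of 22 adult fast genes 21 were seen, none was higher (background 18.7%) and 6 were lower (background 21.1%). Their median was -0.19, or 0.08 when the arrays were quantile normalized. The fast myosin heavy chains Myh1 (-0.16), Myh2 (0.13) and Myh4 (0.01) did not pass the test. Mylk2, the kinase of the myosin light chain, fell by 2.43 ± 0.22, Mybpc2, fast myosin-binding protein C, by 1.51 ± 0.18, Ldb3, another Z-disc protein, by 1.45 ± 0.28, and Myoz1, a Z-disc protein that binds calcineurin, by 1.27 ± 0.22. Myom1 (-0.92) and Myom2 (-0.65) were called too. Myom2 lost the call under most alternatives, and Myom1 with the slide as a block, with the WT arrays alone, with the series matrix, with no filter on dim probes, with the mean of probes and without any single control replicate.

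The rest of the cytoskeleton held the largest rise of any gene seen on all 6 arrays by the naming rule. Of 24 cytoskeletal genes, all seen, 11 were higher and 5 lower, with a median of 0.30. Krt18, a keratin otherwise typical of simple epithelia, read -4.05, -1.80 and -3.34 in control and 6.48, 6.69 and 6.70 in denervated muscle. The controls scattered and the denervated arrays agreed closely, and the difference was 9.69 ± 0.85 (825-fold, adjusted p = 9.14e-06), by a probe at chr15:101859944-101860003 (mm8). Krt8, the partner keratin, was at least 565-fold higher by a probe not well above background in control. Of 8 skin markers 6, among them Krt5 and Krt1, were not seen, and the summed signal of the others was 1.05 to 1.34 in control and 0.759 to 0.946 after denervation. Map1b, a microtubule-associated protein of growing axons, rose by 3.62 ± 0.40, Sync (syncoilin) by 1.47 ± 0.18 and Flnc (filamin C) by 1.33 ± 0.15. The tubulin Tuba8 fell by 2.54 ± 0.18 and the intermediate filament Synm by 1.27 ± 0.23. Tubb6, another tubulin, rose by 2.89 ± 0.32 by its brightest probe and gave -0.76 by the other.

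Genes of energy supply fell in every pathway listed. No member of the lists for glycolysis, the respiratory chain or the citric acid cycle with fatty acid oxidation was called higher. Of 32 glycolysis and glycogen genes, all seen, 25 were lower (background 21.1%), with a median of -1.18. Slc16a3, a transporter that exports lactate, read 6.11, 6.21 and 6.42 in control and 2.34, 2.35 and 2.04 after denervation. Fbp2, muscle fructose bisphosphatase, went from 2.89, 2.69 and 2.57 to -0.92, -0.95 and -1.54. Gpd1, the cytosolic glycerol phosphate dehydrogenase, went from 7.29, 7.20 and 7.46 to 4.41, 4.71 and 4.37. All 3 genes had every denervated array far below every control. Slc16a3 fell by 4.0 ± 0.24 (16.1-fold), Fbp2 by 3.85 ± 0.20 (14.4-fold) and Gpd1 by 2.82 ± 0.17 (7.07-fold).

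Along the pathway itself, Slc2a4, the insulin-responsive glucose transporter, fell by 1.40 ± 0.17, Tpi1, triose phosphate isomerase, by 1.77 ± 0.15, Pfkm, muscle phosphofructokinase, by 1.11 ± 0.16, and Gapdh by 1.22 ± 0.21. The regulatory enzymes Pfkfb1 and Pfkfb3, which make fructose bisphosphate signals, fell by 3.27 ± 0.22 and 2.58 ± 0.31, and Phkg1, a subunit of phosphorylase kinase, by 1.84 ± 0.14. Members that did not pass the test included Aldoa (0.11), Slc2a1 (-0.04) and Gbe1 (0.65). The count was 24 under normexp and 23 with the slide as a block, and 25 or 26 when an array was left out. Within slide 1 the median was -1.03.

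Of 54 respiratory chain genes 37 were lower, with a median of -0.66. Sdha, the flavoprotein of complex II, measured 5.48, 5.60 and 5.52 in control and 4.14, 4.05 and 4.02 after denervation, tight groups that lay apart by 1.46 ± 0.18. Sdhb and Sdhc of the same complex fell by 1.43 ± 0.16 and 1.11 ± 0.13. Cox10, an assembly factor of cytochrome oxidase, fell by 1.67 ± 0.18, Cox7a1, its muscle subunit, by 1.52 ± 0.19, Ndufs8 of complex I by 1.22 ± 0.15, Atp5g1 of the ATP synthase by 1.13 ± 0.16 and Uqcrc1 of complex III by 0.99 ± 0.14. The size of this count depended on the setting: it was 17 under normexp (without Cox10), 27 with the slide as a block, and 25 to 41 when an array was left out. The median was below 0 in each of these.

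Of 45 genes of fatty acid oxidation and the citric acid cycle 39 were lower, with a median of -0.84. Idh2, mitochondrial isocitrate dehydrogenase, went from 3.96, 4.0 and 4.06 to 1.64, 1.24 and 1.73, a fall of 2.47 ± 0.22 (5.55-fold) with no overlap. Acaa2, the thiolase of beta-oxidation, fell by 1.95 ± 0.24 and the lipoprotein lipase Lpl by 1.71 ± 0.24. Cpt1b, the carnitine palmitoyltransferase of muscle, fell by 1.60 ± 0.18, and Idh3a by 1.42 ± 0.17. The fatty acid transporter Cd36 fell by 1.32 ± 0.16, Eci1 by 1.24 ± 0.14 and Suclg1, a succinyl-CoA ligase subunit, by 1.02 ± 0.13. Under normexp 24 were lower, and 31 to 37 when an array was left out.

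Several transcriptional regulators of mitochondria fell with their enzymes, and others did not pass the test. Of 19 regulators 18 were seen, 1 higher and 9 lower, with a median of -0.60. Perm1, a muscle partner of estrogen-related receptors, went from 4.55, 4.80 and 4.86 to 0.83, 1.02 and 0.77 (-3.86 ± 0.41, 14.5-fold lower). Ppargc1a, the coactivator PGC-1alpha, went from 3.13, 2.81 and 2.39 to 1.06, 1.14 and 0.81 (-1.77 ± 0.25). Ppara, a nuclear receptor for fatty acids, went from 1.47, 1.42 and 1.52 to -0.67, -1.03 and -1.05 (-2.39 ± 0.22). None of the 3 had overlapping groups. Prkaa2, a catalytic subunit of the energy sensor AMPK, fell by 2.00 ± 0.14, Vegfa, the vascular growth factor, by 1.61 ± 0.15, Esrra, an estrogen-related receptor, by 1.16 ± 0.15, and Sirt3, a mitochondrial deacylase, by 0.90 ± 0.20. Ppargc1b (-0.72) and Vegfb (-0.64) were called and lost the call under most alternatives, and Sirt3 with the slide as a block. Tbc1d1, a brake on glucose transporter movement, rose by 1.71 ± 0.30.

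Nrf1 (-0.21), Gabpa (0.10), Tfam (-0.29), Tfb2m (-0.17), Polg (-0.37), Esrrb (-0.57), Esrrg (-0.27) and Prkag3 (-0.03), which include the factors that act on mitochondrial DNA, did not pass the test. Ppard was not seen. The median of this list was -0.22 within slide 1 and -0.74 between the other arrays.

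**Figure D3:**
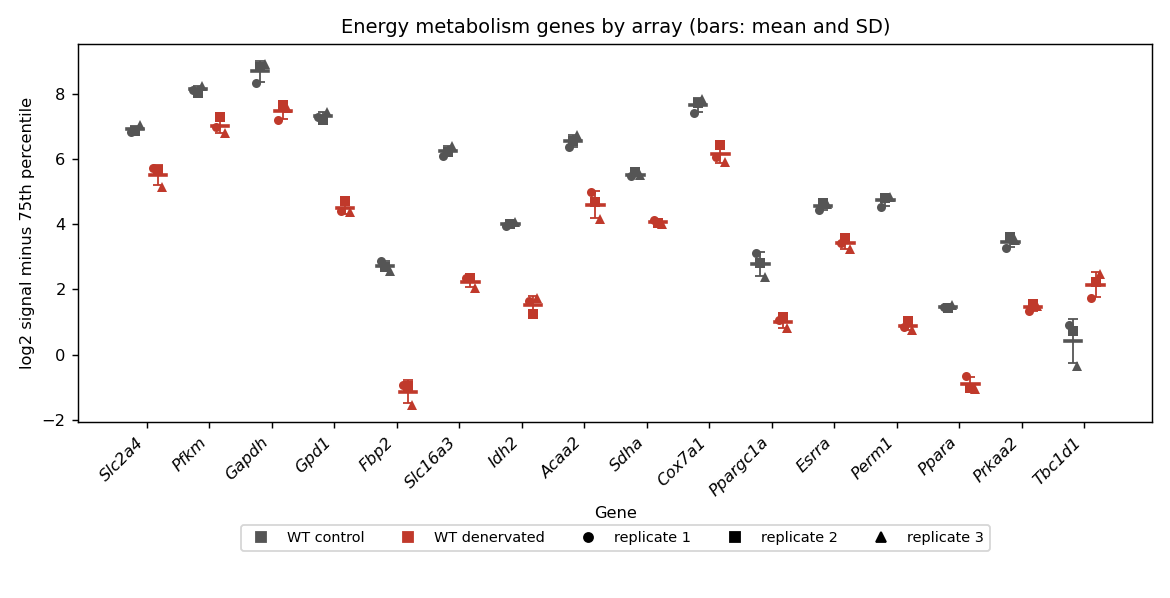
Level on each WT array (log2 signal relative to the 75th percentile of its array) of 16 genes of glucose use, mitochondria and their regulators, with control in grey, denervated in red, a marker shape per replicate and bars at the mean and SD. The 16 genes are a choice of called genes. The 3 denervated points lie below the 3 control points for 15 of the 16 genes, widest for Slc16a3, Perm1 and Fbp2, and above them for Tbc1d1. Over all genes seen, 54.0% had the 3 arrays of a group wholly above the 3 of the other.

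Proteasome genes were higher by small amounts, and the best known atrophy ligases did not pass the test at this time. The proteasome degrades proteins that ligases have tagged with ubiquitin, and it is the main route of protein loss in wasting muscle. Of 34 proteasome genes 24 were higher (background 18.7%) and none lower, with a median of 0.60. Pomp, an assembly chaperone, read 4.83, 4.96 and 5.12 in control and 5.98, 6.29 and 6.06 after denervation (1.14 ± 0.17, 2.20-fold). Its arrays did not overlap. Among the subunits, Psmb5 rose by 0.97 ± 0.16, Psmd4 by 0.88 ± 0.15, Psmd8 by 0.86 ± 0.14, Psmd11 by 0.80 ± 0.14, Psmd2 by 0.76 ± 0.13, Psma4 by 0.69 ± 0.12 and Psmc1 by 0.66 ± 0.12. Under normexp no proteasome gene was called, although the median was still 0.40, and 18 were higher with the slide as a block and 17 to 24 when an array was left out.

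Fbxo32, the ligase atrogin-1, read 3.74, 4.50 and 4.07 in control and 3.38, 4.83 and 5.34 after denervation. The groups overlapped, and its difference of 0.41 was not called, nor was that of Trim63, the ligase MuRF1 (0.05). These 2 genes were chosen after their values were seen. Of 25 ubiquitin genes 24 were seen, 4 higher, near the background of 18.7%, and 7 lower (background 21.1%). Their median was -0.19, or 0.02 when the arrays were quantile normalized. Asb11, a substrate receptor of a cullin ligase, went from 4.88, 5.28 and 5.13 to 1.75, 1.90 and 1.39, a fall of 3.42 ± 0.20 (10.7-fold). Asb15 and Asb2 of the same family fell by 2.65 ± 0.24 and 1.75 ± 0.27, Nedd4l by 1.17 ± 0.23 and Fbxo31 by 0.94 ± 0.22. Mdm2, the ligase of p53, rose by 0.85 ± 0.16, Fbxo30 by 0.84 ± 0.24 and the deubiquitinase Usp14 by 0.56 ± 0.14. None of the 4 rises, nor Nedd4l, was called under normexp, Fbxo31 was not called with the mean of its probes, and Fbxo30 was not called with the slide or scan day as a block or without replicate 2 of either group.

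In autophagy, the route that delivers proteins and organelles to lysosomes, single genes stood out. Of 30 genes, all seen, 9 were higher and 4 lower (background 18.7% and 21.1%), with a median of 0.25. Map1lc3a, an LC3 protein of the autophagosome membrane, rose by 1.79 ± 0.20, and the lysosomal proteases Ctsl and Lgmn by 1.49 ± 0.21 and 1.12 ± 0.14. Tfeb, a transcription factor of lysosome genes, fell by 1.91 ± 0.36, and Psap, a lysosomal activator of lipid breakdown, by 1.03 ± 0.16. Ctsd (0.69), Gabarapl1 (0.70) and Ctsz (0.52) were called too, not under normexp, where 3 members were higher and 1 lower and Tfeb also lost its call. Gabarapl1 and Ctsz were not called with the slide or scan day as a block, nor Gabarapl1 without replicate 2 of either group. With the slide as a block 4 members were higher. Lysosomal genes are also high in macrophages, whose summed marker signal was 37.9 to 56.1 in control and 71.9 to 88.8 in denervated muscle. The part of macrophages in these values was not tested.

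Growth arrest genes, many of them targets of p53, gave some of the largest rises. Of 23 genes, all seen, 9 were higher and 4 lower (background 18.7% and 21.1%), with a median of 0.58. The median was 0.09 with the slide as a block, and 5 were higher under normexp, without Bax. Cdkn1a, the kinase inhibitor p21, went from -0.14, -0.08 and 0.69 to 5.0, 4.72 and 5.87 (5.04 ± 0.29, 33.0-fold). Gadd45a, a stress-induced nuclear protein, went from 2.81, 2.90 and 2.87 to 6.53, 7.07 and 6.72 (3.92 ± 0.19, 15.1-fold). Eda2r, a receptor of the tumour necrosis factor family, went from -0.80, -0.58 and -0.89 to 3.86, 3.88 and 4.15 (4.72 ± 0.21, 26.3-fold). All 3 kept the groups wide apart. Bbc3, the death protein PUMA, rose by 2.34 ± 0.28, the retinoblastoma gene Rb1 by 2.29 ± 0.16, and Bax by 0.75 ± 0.15. Gadd45b fell by 1.70 ± 0.33, Sesn1 by 1.09 ± 0.21 and Ccng1, cyclin G, by 1.05 ± 0.12, so members of this list moved in opposite directions.

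Genes of the integrated stress response and amino acid supply split as well. Of 26 genes 24 were seen, 7 higher and 8 lower (background 18.7% and 21.1%), with a median of -0.03. Under normexp 3 were higher and 4 lower. Atf4, the central factor of this response, fell by 1.03 ± 0.17, Chac1, which breaks down glutathione, by 2.55 ± 0.37, Aldh1l2, a mitochondrial folate enzyme, by 2.27 ± 0.26, and the arginine transporter Slc7a2 by 2.30 ± 0.26. The large neutral amino acid transporter Slc7a5 rose by 2.36 ± 0.25, Slc38a2, a glutamine transporter, by 1.59 ± 0.23, and Slc38a1 by 1.85 ± 0.37 with 1 control array well above background. Under normexp Aldh1l2 (-0.33), Slc7a2 (-0.96) and Slc38a1 (0.75) were not called. Fgf21, a hormone of stressed muscle, was on no control array well above background and was at least 2.00-fold higher, a call lost under normexp.

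Enzymes of polyamines and arginine changed in both directions along the pathway. Of 17 genes 14 were seen, 6 higher and 4 lower (background 18.7% and 21.1%), with a median of 0.28. Agmat, agmatinase, which makes putrescine from agmatine, read -3.97, -3.54 and -3.66 in control, where 1 array was well above background, and -0.16, 0.79 and 1.86 after denervation (4.55 ± 0.43, 23.4-fold). Ass1, argininosuccinate synthase, went from -1.67, -1.09 and -1.0 to 2.16, 2.68 and 3.42 (4.01 ± 0.35). The groups were apart for both. Odc1, ornithine decarboxylase, rose by 1.88 ± 0.18, the spermine synthase Sms by 1.24 ± 0.19, Sat2 by 0.79 ± 0.18 and Srm by 0.49 ± 0.15. Amd1 and Amd2, the decarboxylases that supply the aminopropyl group, fell by 2.32 ± 0.24 and 1.86 ± 0.20, the spermine oxidase Smox by 2.34 ± 0.21, and Nos1, nitric oxide synthase of muscle, by 2.54 ± 0.36. Sat1 (0.35), Oaz1 (0.07), Oaz2 (-0.26) and Azin1 (0.21) did not pass the test, and Azin2, Arg1 and Arg2 were not seen. Srm, Sms and Sat2 were not called under normexp, and Srm also not with no filter on dim probes or without replicate 1 or 3 of either group. Amd1 and Amd2 are close copies, and their probes may share signal.

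Several chaperone and antioxidant genes rose, and a few fell. Of 27 chaperone genes 26 were seen, 10 higher and 3 lower (background 18.7% and 21.1%), with a median of 0.35, and under normexp 4 were higher. The small heat shock proteins Hspb8, Hspb7 and Hspb1, which guard filaments, rose by 1.91 ± 0.17, 1.78 ± 0.31 and 1.52 ± 0.23. Hsp90aa1 (1.15), Hsph1 (1.00) and Hspa2 (0.94) rose as well, Hsp90aa1 and Hsph1 not under normexp. Dnajb5 fell by 1.60 ± 0.18 and Smyd1, a methyltransferase that helps fold myosin, by 1.14 ± 0.23. Of 27 detoxification and antioxidant genes, all seen, 15 were higher and 3 lower, with a median of 0.59, and 5 were higher under normexp. Gsta1, a glutathione transferase, was at least 63.9-fold and Aldh3a1, an aldehyde dehydrogenase, at least 16.5-fold higher, both from no control array well above background. Mt2, a metallothionein, rose by 2.36 ± 0.27, the aldehyde oxidase Aox1 by 1.90 ± 0.17, Srxn1 by 1.28 ± 0.15, Gpx1 by 1.10 ± 0.17 and Gclc, which makes glutathione's precursor, by 0.88 ± 0.12. Gpx1 and Gclc were not called under normexp. Aldh1a1, a retinaldehyde dehydrogenase, fell by 2.04 ± 0.24.

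Among the factors that muscle secretes, Gdf5 rose and Ostn and Mstn fell. Of 34 genes 30 were seen, 5 higher and 10 lower (background 18.7% and 21.1%), and their median was -0.07, or 0.16 with normexp background correction. Gdf5, a BMP-family ligand, read -3.37, -2.49 and -2.85 in control and 2.92, 3.57 and 2.67 after denervation (5.96 ± 0.34, 62.1-fold). Ostn, osteocrin, which blocks clearance of natriuretic peptides, went from 2.92, 2.88 and 3.95 to -2.02, -1.36 and -1.69 (-4.94 ± 0.36, 30.6-fold lower). Mstn, myostatin, the brake on muscle growth, went from 2.80, 2.48 and 3.04 to 0.46, 0.67 and 0.45 (-2.25 ± 0.18, 4.75-fold lower). No pair of groups overlapped. Gdf6, another BMP-family ligand, was at least 16.6-fold higher from no control array well above background. Fst, follistatin, which binds myostatin and activin, rose by 2.60 ± 0.37. Ntf5, a neurotrophin, fell by 3.14 ± 0.23, Fndc5, the precursor of irisin, by 1.86 ± 0.22, and Il15 by 3.43 ± 0.27 by its brighter probe, with -0.93 ± 0.52 by the other.

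Matrix genes gave large single rises while the fibril collagens did not pass the test. Of 39 genes, all seen, 9 were higher and 5 lower, near the background of 18.7% and 21.1%, with a median of 0.09 (-0.05 under normexp). Under normexp 6 were higher and 3 lower, without Col8a1, Thbs4 and Col15a1. Col19a1, a minor collagen, went from -2.42, -1.72 and -2.43 to 3.39, 3.75 and 3.77, a rise of 5.83 ± 0.34 with no overlap. Timp1, an inhibitor of matrix proteases, rose by 3.92 ± 0.33, the matricellular protein Ccn1 by 2.64 ± 0.30, Lox, which cross-links collagen, by 2.25 ± 0.24, Col8a1 by 1.19 ± 0.22 and Thbs4 by 0.70 ± 0.14. Col15a1, a collagen of muscle and vessel basement membranes, fell by 1.23 ± 0.26. Col1a1 (-0.26) and Col3a1 (0.11), chosen after their values were seen, did not pass the test. Fibroblast markers moved little beside these, with 2 of 11 lower, none higher and a median of -0.26.

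Clock genes as a list stayed near the background. Of 19 genes 18 were seen, 1 was higher and 4 lower (background 18.7% and 21.1%), with a median of -0.09. Nfil3 fell by 1.66 ± 0.36, Hlf by 1.62 ± 0.34 and Nr1d2 by 0.76 ± 0.17, the last not called under normexp. Clock rose by 0.82 ± 0.22, a call lost under normexp, with the slide or scan day as a block and without control replicate 2. The core factors Arntl (0.29), Per1 (-0.07), Per2 (1.12), Per3 (-0.30), Cry1 (-0.51), Cry2 (0.62) and Nr1d1 (-0.59) did not pass the test, nor did Dbp (0.18), Tef (0.18), Rora (0.07), Ciart (-0.33), Bhlhe40 (-0.10) and Bhlhe41 (-0.06). Npas2 was not seen.

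Ribosomal protein genes moved little with the exception of a pair of paralogs. Of 49 genes, all seen, 4 were higher and 1 lower (background 18.7% and 21.1%), with a median of 0.26. Rpl3, the general form of a core protein of the large subunit, read 3.23, 3.26 and 3.51 in control and 5.46, 5.41 and 5.49 after denervation (2.12 ± 0.18, 4.35-fold). Rpl3l, its form in heart and skeletal muscle, read 6.38, 6.54 and 6.39 in control and -6.62, 3.66 and 3.16 after denervation. The groups were separate for both genes and ran in opposite directions. Denervated replicate 1 of Rpl3l was not well above background and lay far from the others, and the difference had a wide error (-6.37 ± 2.01, adjusted p = 0.027). That call was lost with the WT arrays alone, with no filter on dim probes and without any single control replicate. The number of ribosomal genes called higher ranged from 1 to 27 over the alternatives, the highest with a normalization of quantile type.

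**Figure D4:**
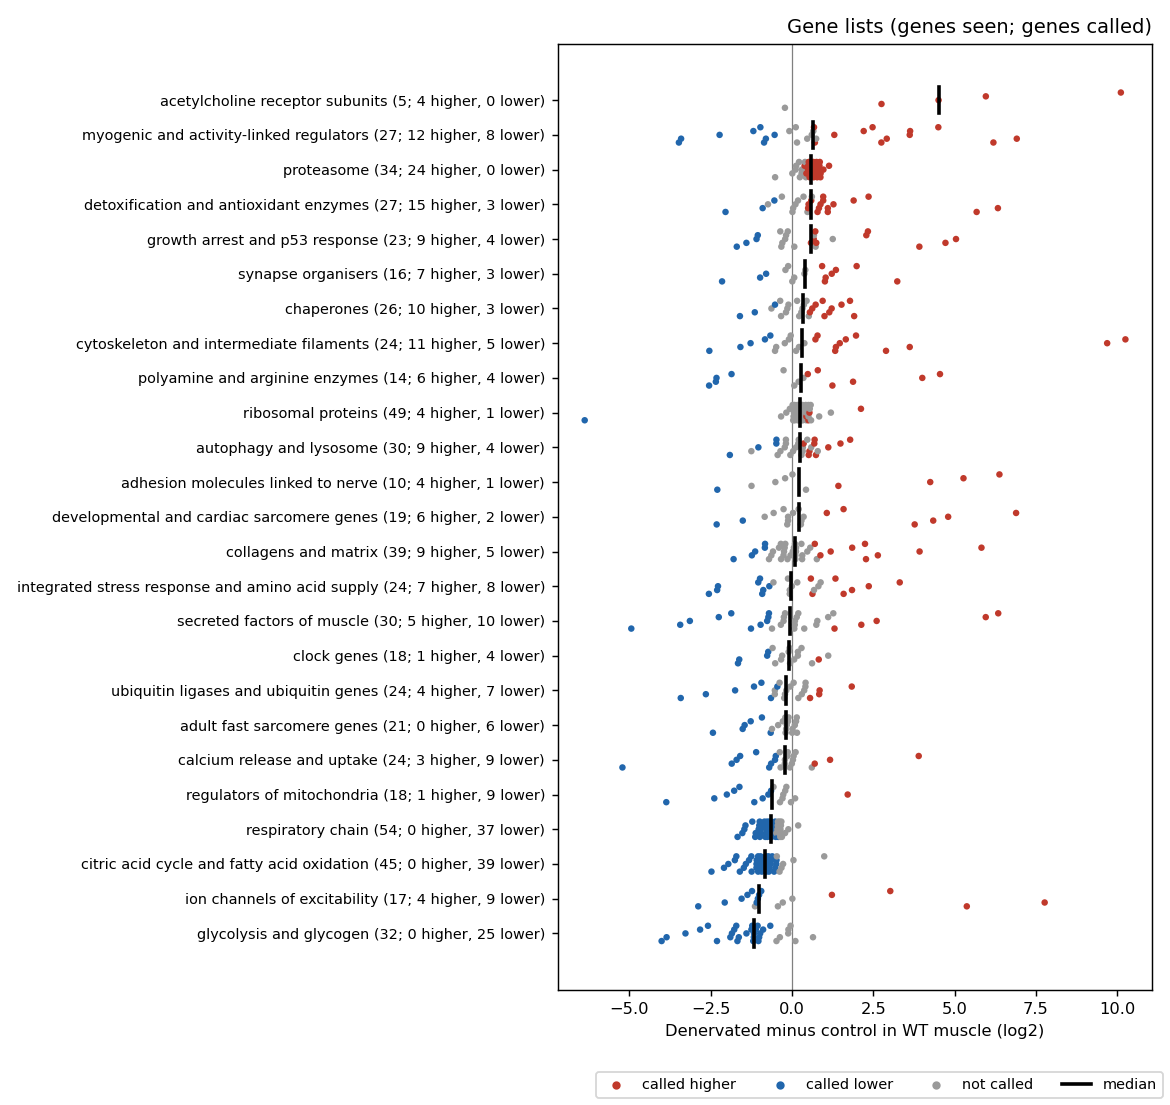
Denervated minus control difference (log2) of every seen member of 25 gene lists, a point per gene and a black tick at the median of the list, sorted by the median. Acetylcholine receptor subunits stand at one end with a median of 4.51, and glycolysis and glycogen genes at the other with a median of -1.18.

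Markers of other cells of the muscle changed too. Schwann cells wrap the axons, and 11 of their 13 markers were seen, 1 higher and 6 lower, with a median of -1.28. The myelin genes Prx, Mbp and Pmp22 fell by 3.34 ± 0.45, 3.15 ± 0.39 and 2.12 ± 0.28. S100b fell by 2.46 ± 0.29 and Cnp by 1.28 ± 0.21. The general Schwann cell factor Sox10 (-0.37) did not pass the test. Ngfr, the neurotrophin receptor of Schwann cells without axons, rose by 2.33 ± 0.29 by its brighter probe, with -0.62 by the other, and 1 of 3 Mbp probes gave 1.34. Under normexp 3 were lower, and Prx and Cnp lost the call.

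Of 13 endothelial markers 9 were lower and 1 higher, with a median of -0.86. The receptor Kdr fell by 1.33 ± 0.20, Pecam1 by 1.39 ± 0.29, Tek by 1.17 ± 0.20, Eng by 1.23 ± 0.24 and Flt1 by 0.86 ± 0.18. Ramp2, a subunit of the adrenomedullin receptor, rose by 1.84 ± 0.31, and 1 of its 5 probes gave -0.96. Their summed signal, in which Ramp2 weighs heavily, was 64.3 to 74.5 in control and 63.3 to 79.9 in denervated muscle. Of 10 smooth muscle and pericyte markers 5 were lower, among them Rgs5 (-1.46) and Kcnj8 (-1.39), and their sum was 260.5 to 339.3 in control and 173.3 to 206.2 after denervation. Of 6 erythrocyte markers seen 5 were lower (1 under normexp), and their sums of 94.6 to 237.8 and 50.8 to 118.6 overlapped.

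Of 17 macrophage markers, all seen, 4 were higher, near the background of 18.7%, and none lower, with a median of 0.43. Lgals3, galectin-3, read 0.80, 0.67 and 0.81 in control and 4.05, 4.53 and 3.11 after denervation, a rise of 3.14 ± 0.30 with no overlap, and Cd68 rose by 2.00 ± 0.34. Csf1r (-0.01) and Adgre1 (0.54), which define the lineage, did not pass the test, and 2 markers were called under normexp and with the slide as a block. T and B cell markers were dim, with 5 of 9 not seen, and of 9 granulocyte and mast cell markers seen 4 were lower, none under normexp. No adipocyte marker of 6 seen was called. Of 7 tendon and cartilage markers seen 2 were higher. Scx, a tendon factor, read 1.72, 1.69 and 2.67 in control and 5.78, 6.33 and 6.45 after denervation (4.16 ± 0.30, 17.9-fold), with groups far apart. The sum of the list was 34.3 to 39.7 in control and 98.9 to 126.5 after denervation, while its other members apart from Thbs4 were not called.

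**Figure D5:**
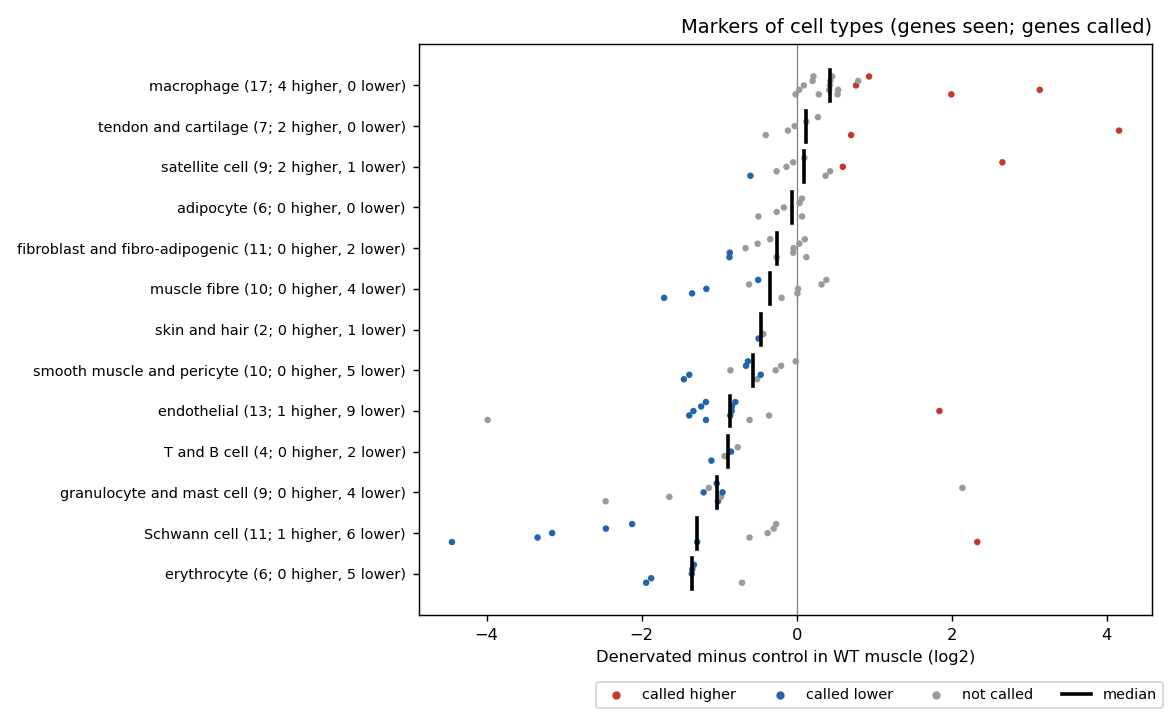
Denervated minus control difference (log2) of every seen marker of 13 cell types, a point per gene and a black tick at the median, sorted by the median. Erythrocyte and Schwann cell markers have the lowest medians, -1.35 and -1.28, and macrophage markers the highest, 0.43.

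The 20 largest rises and 20 largest falls among called genes seen on all 6 arrays held further genes outside these lists. Rrad, a small GTPase that damps calcium channels, went from -1.66, -1.10 and -1.38 to 4.50, 5.53 and 5.43 (6.53 ± 0.41). Adra1b, an adrenergic receptor, went from -3.89, -3.81 and -3.83 to 1.33, 0.98 and 1.56 (5.13 ± 0.25). The groups of both lay far apart. The other rises were of Plekhh1 (5.86), Tiam2 (5.17), Cpne2 (5.10), Tekt1 (4.99), Cgref1 (4.78), Micall2 (4.66) and Ttc9 (4.64), of which Tiam2 activates the GTPase Rac. Among the falls, Mlf1 went from 5.64, 5.45 and 5.63 to 1.85, 2.35 and 1.62 (-3.63 ± 0.21), and Aqp4, the water channel of fast fibres, from 0.80, 0.96 and 1.23 to -3.26, -2.35 and -2.98 (-3.86 ± 0.51). Neither overlapped. Further falls were of the phospholipases Pla2g5 (-4.27) and Plcd4 (-3.85), Ramp1 (-4.23), Emid1 (-3.84), Tlcd3b (-3.79), BC048679 (-3.71), Nrep (-3.64), the fructose bisphosphatase Tigar (-3.62), Egflam (-3.40) and the antisense RNA Sox6os (-3.40). The differences of these 40 genes within slide 1 were 0.665 to 1.26 times the full ones, and all 40 were called with the slide as a block. The slide 1 arrays were part of the fit and of the no-overlap rule that chose the genes. The same direction within slide 1 was therefore fixed in advance.

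Some genes were seen in a single condition. The probes of 303 genes were well above background on all 3 denervated arrays and on no control array, and 255 of these were called higher, while 116 showed the reverse and 113 of these were called lower. These genes were picked by the group in which they are bright, so the direction of their calls was fixed by that choice. Over all genes seen, 18.7% were called higher and 21.1% lower. Where no probe of the gene was well above background in the dimmer group, the fold is a lower bound, which could be set for 158 higher and 82 lower genes. The largest bounds upward, beside Gsta1 and Gdf6, were those of Bpifb1 (at least 65.3-fold), the chloride channel regulator Clca1 (36.4-fold), Gsta2 (34.9-fold), the potassium channel Kcnk5 (33.9-fold), Ropn1l (22.6-fold) and Hhipl1 (17.8-fold). Gsta1 and Gsta2 are close copies, and their probes may share signal. Downward they were those of Cntnap2, an adhesion protein of axons (at least 24.7-fold), Golga7b (12.8-fold), Vwa3b (12.7-fold), the peptide Grp (12.2-fold), the muscle growth factor Fgf6 (11.6-fold), the potassium channel subunit Kcng4 (11.0-fold), Gpr37l1 (9.51-fold) and the myelin gene Ncmap (9.09-fold). Under normexp, all of these downward genes but Cntnap2 lost the call.

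The same comparison in KO muscle asks whether Smad4 is needed for this response, and for nearly all genes no difference between the genotypes was called. The test of the difference of the responses called 21 of 14736 genes (0.143%), of which 17 were among the 5868 genes called in WT muscle (0.290%). The 21 became 6 with the replicate block and 2 with the slide as a block. Each of the 6 genes named here for this difference lost it with the slide as a block (limma adjusted p = 0.0518 to 0.0611) and under normexp (limma adjusted p = 0.247 to 1), and Npr3 and 4930558C23Rik kept it with the replicate block. Plekhh2 and 4930558C23Rik also lost it with no filter on dim probes and without WT control replicate 1 or 2 or denervated replicate 2. Of the 17 genes also called in WT muscle, 3 changed more in KO muscle, 8 changed less and 6 had the opposite sign there. Npr3, the clearance receptor of natriuretic peptides, read -0.38, -0.50 and -0.51 in WT control and 2.44, 2.58 and 1.45 in WT denervated muscle. It rose by 2.62 ± 0.26 without overlap, against a difference of -1.25 in KO muscle. Adra1b rose by 5.13 in WT and by 2.13 in KO muscle, and Plekhh2 by 4.87 and 2.06. Ankrd55 rose by 4.91 in WT muscle against 0.08 in KO muscle, and the transcript 4930558C23Rik by 2.38 against 0.02. Rgcc, a cell cycle regulator, rose by 0.72 in WT muscle against -1.83 in KO muscle, and its WT call was lost under normexp, with the slide or scan day as a block and without control replicate 1 or 2 or denervated replicate 2. Plekhh2, Ankrd55 and 4930558C23Rik were not well above background on any WT control array, so their sizes in WT muscle are uncertain, and normexp took that of 4930558C23Rik to 0.78 (not called, limma adjusted p = 0.171). Of the 40 largest changes, Adra1b alone differed between the genotypes, and a p above the threshold does not show that the other responses were equal.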

How the data were processed

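Total RNA of 12 whole gastrocnemius muscles, 3 per group, was measured on Agilent arrays in one colour (Cy3). The titles gave each sample's group and replicate number. Per the file headers, the deposited scanner intensity of a spot is background-subtracted and detrended and not normalized between arrays. The authors' deposited series matrix holds intensity on a linear scale, and its normalization is not given in the sources used here. The headers name Feature Extraction 10.7.3.1 and the submitters' processing notes 10.5.1.1.

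Control spots were left out, outlier spots set missing and spots of a probe averaged. Log2 intensity minus the array's 75th percentile was used. A RefSeq table gave the gene of 24496 probes by their accession, of 6234 by a symbol and of 2386 by a synonym, and 8058 kept the name in the file. Of 22524 probes well above background on all arrays of a group, the brightest stood for its gene, which gave 15227 genes, 226 of them with a missing value. limma 3.58.1 in R 4.3.3 (lmFit, eBayes, two-sided) was fitted to all 12 arrays with 4 group means, with 8 residual and 3.15 prior degrees of freedom and Benjamini-Hochberg adjustment over the 15227 genes. The script was tested on simulated data. Python 3.11.15, pandas 2.3.3, numpy 2.4.6 and matplotlib 3.10.9 were used for tables and figures. Probe positions are on mm8, as in the files.

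Alternatives were normexp, quantile and median scaling, the series matrix, other probe filters, the mean of probes, the WT arrays alone, replicate, slide and scan day as blocks, and leaving out each array. Normexp was run with an offset of 50 intensity units, which makes differences between dim signals smaller. Calls lost under normexp can therefore reflect the offset as well as the correction. The comparison, lists and tests were chosen with earlier results of these data known. The naming rule took the 20 largest rises and 20 largest falls among called genes with a RefSeq symbol, seen on all 6 WT arrays without overlap of the groups, the 8 largest bounds in each direction, all members of lists of up to 20 genes, the 8 smallest adjusted p of longer lists, and 6 genes by the difference between genotypes. Other genes were named after their values were seen, and some genes that the rule takes are not reported here. Chrnd was to have its promoter printed with those of the other 4 genes. The 25 gene lists held 675 distinct genes, of which 649 were seen, and the 14 marker lists are not in these counts. Over all lists, 11 symbols were matched by an alias.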

Additional observations from a re-analysis of the deposited data

Results flagged for a closer look

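The 6 genes below were the called WT genes with the smallest adjusted p for a difference of the denervation response between the genotypes, by limma's interaction term (n = 3 in each of 4 groups). Npr3 differed by -3.87 ± 0.37 (KO response minus WT response, log2, SE) at an adjusted p of 0.00298. Adra1b differed by -3.00 ± 0.35 at an adjusted p of 0.0104. Ankrd55 differed by -4.84 ± 0.56 at an adjusted p of 0.0104. Rgcc differed by -2.55 ± 0.30 at an adjusted p of 0.0104. Plekhh2 differed by -2.81 ± 0.37 at an adjusted p of 0.0226. The transcript 4930558C23Rik differed by -2.36 ± 0.33 at an adjusted p of 0.0288. Ankrd55, Plekhh2 and 4930558C23Rik were on no WT control array well above background, so the sizes of their differences are uncertain. All 6 lost the call with the slide as a block (limma adjusted p of 0.0518 to 0.0611) and under normexp (0.247 to 1), and 4 of them lost it with the replicate block, while Npr3 and 4930558C23Rik kept it. Plekhh2 and 4930558C23Rik also lost the call with no filter on dim probes and without WT control replicate 1 or 2 or denervated replicate 2.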

How the results depend on the processing

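Quantile and median scaling, the series matrix, no filter, a stricter filter, the mean of probes, the WT arrays alone, and slide or scan day as a block gave 4394 to 6202 called genes against the 5868 reported. Leaving out an array gave 4710 to 5208 calls, of which 2135 to 2525 were higher and 2415 to 2683 lower, with 1168 to 1341 higher and 1223 to 1432 lower at least 2-fold. Normexp gave 1908 calls, 1895 of them shared with the reported calls, with 724 higher and 1184 lower, and 469 higher and 729 lower at least 2-fold, and the cause was not tested. The replicate number as a block gave 5665 calls, 2635 higher and 3030 lower, with 1276 higher and 1403 lower at least 2-fold. The labels do not say that a number pairs animals, and same-numbered WT arrays deviated together with r of 0.31, 0.088 and 0.22, the lowest under the 0.1 required, although each correlated best with its own number, which is a hint from the data. The arrays of replicate 1, with r of 0.31, also shared slide 1 and its scan day. A shared slide and a shared animal cannot be told apart for them. The 21 genes whose response differed between genotypes became 6 with the replicate block and 2 with the slide as a block. Of 256 named genes that were called, 188 kept the call in every alternative fit that held them, 60 lost it under normexp and 14 with the slide as a block. Myh8, not called as reported, rose by 1.87 with the mean of its probes in place of the brightest, since its probes differ. Dim probes limit what can be told apart: the lowest signal well above background was 10.7 to 15.5 intensity units on the WT arrays.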
